A study of Rattus norvegicus with 6 samples.

Results

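The enzymes that make cholesterol, fatty acids and the lipids of the myelin sheath, together with the regulators of the sterol pathway, were followed in rat sciatic nerve after crush injury. The list was drawn up by gene name and holds 37 symbols. They matched 38 of the 30957 gene entries counted, because Elovl6 appears under 2 gene identifiers. Scd was found under the file's name Scd1. The members lie on 17 chromosomes, and all 38 entries were among the 15195 genes with enough counts to be tested.

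Sciatic nerve RNA from 6 Sprague-Dawley rats, 1 month old, was sequenced after removal of ribosomal RNA. Each group held 2 rats with 1 library each, named a and b. The D4 and D7 groups were taken 4 and 7 days after the middle of the left sciatic nerve had been clamped with hemostatic forceps, and the control group had no clamp; the study's methods give it the same operation otherwise, while the labels call it a normal control. Rats that share a letter are different animals. With 2 rats per group, the p-values rest on the spread between few animals.

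A myelin sheath is a lipid-rich stack of Schwann cell membrane, and cholesterol is one of its main constituents. The cell builds cholesterol from acetyl-CoA through mevalonate, squalene and lanosterol, and builds sphingolipids from fatty acids and serine through ceramide, which Schwann cells and oligodendrocytes galactosylate and sulfate into the typical myelin galactolipids. The SREBP transcription factors drive many of these genes when membrane sterol is low. After a nerve crush, Schwann cells beyond the lesion give up their myelin and later wrap regrowing axons again, and fat cells, which also make fatty acids, lie in the tissue around the nerve.

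The libraries held 18727255 to 25350886 fragment counts on genes. Values between libraries are given as CPM, that is counts scaled to a common library total with TMM factors, which ran from 0.863 to 1.08. Levels of different genes are compared only as FPKM, which divides by transcript length. A gene is called higher or lower where the edgeR quasi-likelihood test gave a Benjamini-Hochberg adjusted p under 0.05 over all genes tested and the fold change was at least 2. Errors of log2 fold changes are standard errors, and gene positions are on Rnor_6.0. Schwann cell markers were abundant in every library, with a summed level of 106381 and 72972 CPM in control, 6969 and 7717 at D4 and 21834 and 14449 at D7.

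Most lipid synthesis genes stood far below control at both days. At D4, 29 of the 38 entries were lower, against 10.7% of all genes tested, and 0 were higher, against 11.2% of all genes. At D7, 27 were lower, where 9.02% of all genes were, and 0 were higher, where 9.83% of all genes were. Beside these counts of 0, edgeR's unadjusted p was under 0.05 for 1 entry with a higher value at D4 (Fads1, below) and for 0 at D7, and DESeq2 called 0 higher at either day. The median log2 fold change of the 38 entries was -2.78 at D4 and -2.09 at D7, while that of all genes tested was -0.035 and 0.012. All 27 entries lower at D7 were lower at D4 too; D4 and D7 were compared with the same control libraries. The 9 entries called in no comparison were Srebf1, Scap, Scd, Elovl5, Fads1, Fads2, Sptlc1, Cers2 and Ugcg. In bulk tissue, fewer cells of a type and less RNA per cell cannot be told apart.

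**Figure D1:**
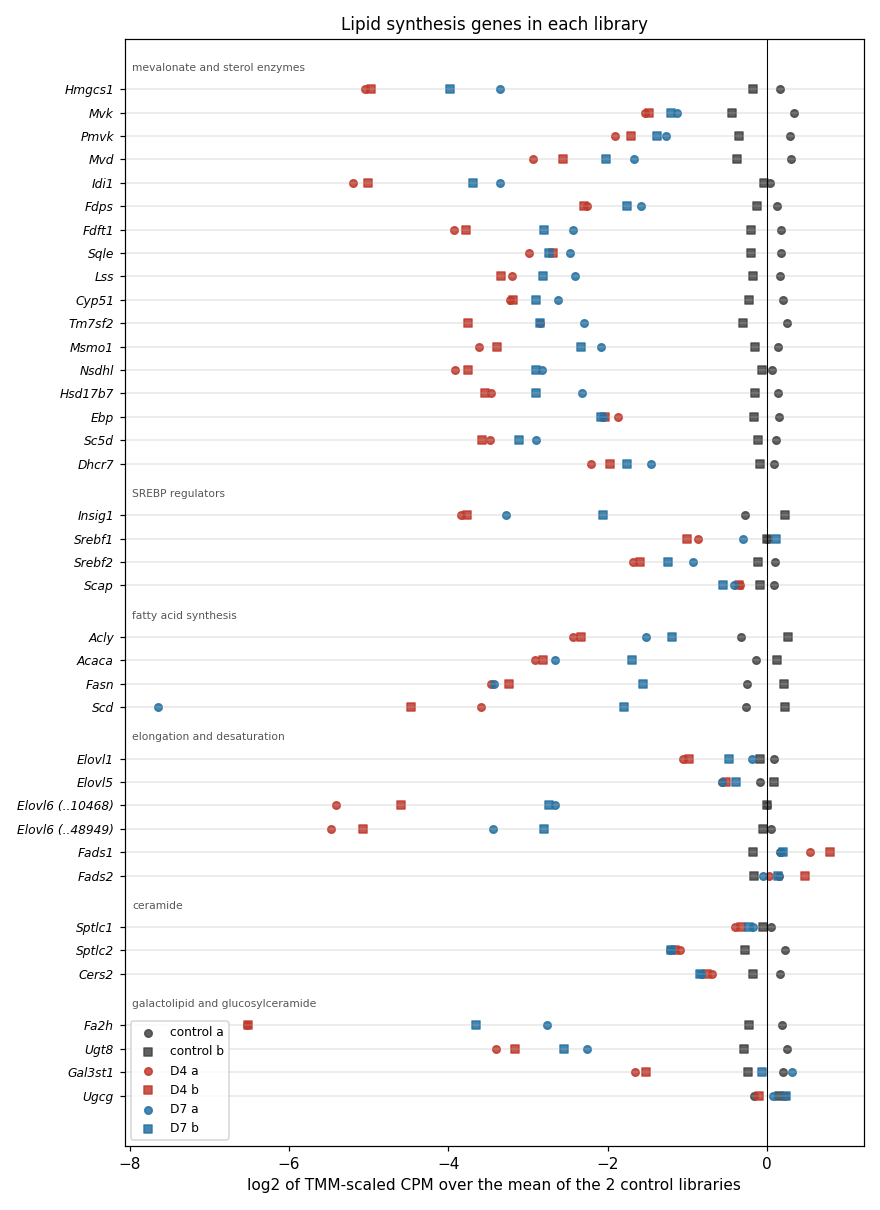
Level of each lipid synthesis gene in each of the 6 libraries, as log2 of its TMM-scaled CPM over the mean of the 2 control libraries, with genes grouped by role; circles are libraries a and squares libraries b. The D4 and D7 points of all 17 sterol enzymes lie left of both control points, Scd is spread widest at D7, and Fads1 lies right of control at D4.

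All 17 enzymes of the mevalonate and sterol pathway were lower at D4 and at D7, against 10.7% and 9.02% of all genes tested. In each of them both injured libraries of either day stood below both controls. How many of all genes separate in this way was not counted, so this only describes the genes called. Their median log2 fold change was -3.24 at D4 and -2.58 at D7. At D4 they were at 2.93% to 35.2% of control, and at D7 at 8.05% to 44.5%. Summed over the 17 genes, the pathway had 8503 and 6831 CPM in control, 534 and 558 at D4 and 1122 and 874 at D7. In the pathway's own order the 17 are described below.

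Hmgcs1 (chr2:52431601-52445055), which joins acetyl-CoA units into HMG-CoA, had the highest FPKM of the sterol enzymes in control, with a mean of 919. It had 3796 and 2990.1 CPM in control, 102 and 109 at D4 and 332 and 215 at D7. This was a 32.2-fold fall at D4 (log2 fold change -5.01 ± 0.27, adjusted p = 0.000141) and a 12.4-fold fall at D7 (log2 fold change -3.63 ± 0.25, adjusted p = 0.000417). The kinases that phosphorylate mevalonate changed less. Mvk, the first of them, had 30.7 and 18.0 CPM in control, 8.46 and 8.72 at D4 and 11.2 and 10.5 at D7, and its fold change was the smallest of the pathway at D4 (log2 fold change -1.51 ± 0.26, adjusted p = 0.00516) and at D7 (log2 fold change -1.17 ± 0.25, adjusted p = 0.0155). Pmvk, the second kinase, had 77.1 and 49.6 CPM in control, 16.8 and 19.5 at D4 and 26.2 and 24.4 at D7 (log2 fold change -1.80 ± 0.22, adjusted p = 0.00147 at D4; log2 fold change -1.33 ± 0.22, adjusted p = 0.00572 at D7). Both kept their injured libraries below control, but the controls themselves differed, with b under a in both. Without control a, Mvk and Pmvk had log2 fold changes at D7 of -0.73 and -0.97, under the 2-fold threshold, and without TMM factors Mvk was at -0.87. Without D7 a or without D7 b, the adjusted p of Mvk at D7 was 0.0651 or 0.0624.

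Mvd, the decarboxylase that makes isopentenyl diphosphate, had 75.7 and 47.3 CPM in control, 8.04 and 10.4 at D4 and 19.3 and 15.1 at D7 (log2 fold change -2.73 ± 0.28, adjusted p = 0.000764 at D4; log2 fold change -1.83 ± 0.27, adjusted p = 0.00376 at D7). Idi1 (chr17:57976268-57984036) interconverts the isoprene units that this step yields. It had 702 and 662 CPM in control, 18.6 and 21.2 at D4 and 66.9 and 52.7 at D7. Idi1 was at 2.93% of control at D4 (log2 fold change -5.10 ± 0.17, adjusted p = 0.000112), the lowest of the 17, and at 8.77% at D7 (log2 fold change -3.51 ± 0.15, adjusted p = 0.000217). Fdps, which joins these units into farnesyl diphosphate, had 316 and 265 CPM in control, 60.8 and 59.1 at D4 and 97.1 and 85.9 at D7 (log2 fold change -2.28 ± 0.12, adjusted p = 0.000148 at D4; log2 fold change -1.67 ± 0.12, adjusted p = 0.000466 at D7). Fdps kept 20.6% of its control level at D4, more than Idi1, the enzyme before it.

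Squalene and lanosterol follow. Fdft1, squalene synthase, had 381 and 294 CPM in control, 22.2 and 24.7 at D4 and 62.4 and 48.6 at D7 (log2 fold change -3.85 ± 0.19, adjusted p = 0.000128 at D4; log2 fold change -2.60 ± 0.18, adjusted p = 0.000445 at D7). Sqle, squalene epoxidase, had 257 and 197 CPM in control, 28.7 and 35.2 at D4 and 40.8 and 34.2 at D7 (log2 fold change -2.83 ± 0.19, adjusted p = 0.000218 at D4; log2 fold change -2.60 ± 0.19, adjusted p = 0.000448 at D7). The D4 and D7 libraries of Sqle overlapped, whereas those of Fdft1 were apart. Lss, which closes the rings of lanosterol, had 266 and 212 CPM in control, 26.1 and 23.5 at D4 and 44.8 and 34.0 at D7 (log2 fold change -3.27 ± 0.19, adjusted p = 0.000164 at D4; log2 fold change -2.60 ± 0.18, adjusted p = 0.000445 at D7). Cyp51, which removes the first methyl group, had 1029.7 and 770.1 CPM in control, 96.1 and 98.8 at D4 and 146 and 121 at D7 (log2 fold change -3.21 ± 0.18, adjusted p = 0.00016 at D4; log2 fold change -2.75 ± 0.18, adjusted p = 0.000377 at D7).

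The later enzymes turn lanosterol into cholesterol. Tm7sf2, a sterol reductase, had 84.9 and 57.6 CPM in control, 9.89 and 5.28 at D4 and 14.6 and 9.85 at D7 (log2 fold change -3.24 ± 0.37, adjusted p = 0.00122 at D4; log2 fold change -2.55 ± 0.36, adjusted p = 0.00346 at D7). Msmo1, the methylsterol oxidase, had 455 and 374 CPM in control, 33.8 and 39.5 at D4 and 97.5 and 82.3 at D7 (log2 fold change -3.50 ± 0.16, adjusted p = 0.000124 at D4; log2 fold change -2.21 ± 0.15, adjusted p = 0.000429 at D7). Both fell, and the 2 libraries of a day stood closer together for Msmo1 than for Tm7sf2. Nsdhl, the X-linked dehydrogenase of the demethylation complex, had 235 and 214 CPM in control, 14.9 and 16.6 at D4 and 31.6 and 30.0 at D7 (log2 fold change -3.83 ± 0.11, adjusted p = 9.21e-05 at D4; log2 fold change -2.86 ± 0.11, adjusted p = 0.000174 at D7). Its adjusted p at D4 was the smallest of all 38 entries. Hsd17b7, the ketoreductase of the same complex, had 62.0 and 50.7 CPM in control, 5.09 and 4.84 at D4 and 11.3 and 7.52 at D7 (log2 fold change -3.50 ± 0.23, adjusted p = 0.000213 at D4; log2 fold change -2.58 ± 0.22, adjusted p = 0.000676 at D7). Ebp, the sterol isomerase, had 47.5 and 38.2 CPM in control, 11.7 and 10.5 at D4 and 10.3 and 10.1 at D7 (log2 fold change -1.95 ± 0.15, adjusted p = 0.000311 at D4; log2 fold change -2.07 ± 0.15, adjusted p = 0.000463 at D7). Ebp was the sterol enzyme whose fitted value was no higher at D7 than at D4. Sc5d, a desaturase, had 574 and 492 CPM in control, 47.7 and 44.4 at D4 and 71.5 and 61.5 at D7 (log2 fold change -3.53 ± 0.14, adjusted p = 0.000114 at D4; log2 fold change -3.00 ± 0.13, adjusted p = 0.000217 at D7). Dhcr7, which makes cholesterol from 7-dehydrocholesterol, had 113 and 99.8 CPM in control, 23.0 and 27.0 at D4 and 38.7 and 31.5 at D7 (log2 fold change -2.09 ± 0.15, adjusted p = 0.000256 at D4; log2 fold change -1.60 ± 0.15, adjusted p = 0.000827 at D7).

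**Figure D2:**
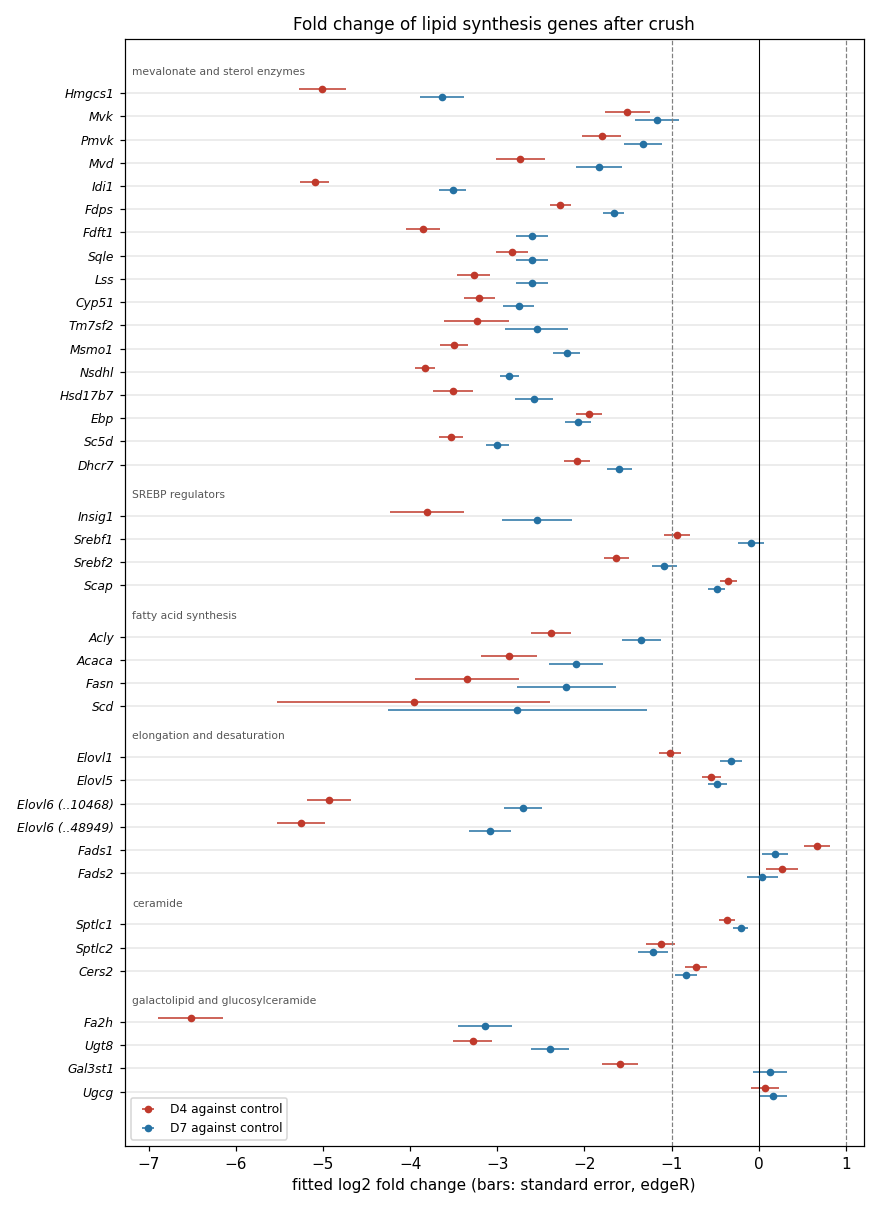
Fitted log2 fold change of each lipid synthesis gene at D4 and D7 against control, with standard errors from the edgeR fit of 6 libraries; dashed lines mark a 2-fold change in either direction. Sterol enzymes run from -5.10 to -1.51 at D4, Fa2h reaches -6.52, and the error of Scd is the widest, with 1.57 at D4.

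Schwann cell markers and sterol enzymes stood below control together. Of the 10 Schwann markers, 6 were lower at D4 and 4 at D7, and 1 was higher at both days. Mbp, myelin basic protein, had 13194 and 8008 CPM in control, 775 and 741 at D4 and 1993 and 1262 at D7. Sox10, a transcription factor of the Schwann lineage, had 357 and 257 CPM in control, 298 and 347 at D4 and 546 and 403 at D7 and was not called at either day (log2 fold change 0.069 ± 0.21, adjusted p = 0.81 at D4; log2 fold change 0.63 ± 0.21, adjusted p = 0.0618 at D7). Erbb3, the neuregulin receptor of Schwann cells, had 666 and 552 CPM in control, 1247 and 1419.6 at D4 and 1757 and 1553 at D7 and was the marker that was higher. All 8 macrophage markers were higher at D4 and 7 of 8 (not Cd163) at D7, their summed level running from 343 to 374 CPM in control, from 1148 to 1175 at D4 and from 728 to 906 at D7. All 3 proliferation markers were higher at both days. Of 3 endothelial markers 2 (Kdr, Tek) were lower at D4 and all 3 at D7, of 4 fibroblast markers 0 and 1 (Col1a1), and of 6 skeletal muscle markers tested 1 (Myh7) at each day. The part of these markers in the fall of the lipid genes was not tested.

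The sequence before the gene start was looked up in RefSeq's promoter table for the rat assembly GRCr8, which held 30 of the 37 symbols. In the 300 bases around the start, the letters CCAAT stood on either strand in 22 of the 30 promoters (73.3%), in 37.7% of all 27457 promoters in the table and in 37.0% of the promoters of genes tested. Among the sterol enzymes 12 of 14 held them. On the given strand alone the shares were 33.3% and 21.2%. The GC box GGGCGG, which can share 2 letters with ATTGG, stood in 25 of 30 (83.3%), in 34.9% of all promoters and in 61.1% of those of genes tested. The E-box CACGTG stood in 4 of 30 (13.3%), in 6.65% of all promoters and in 8.97% of those of genes tested. The sterol response letters TCACNCCAC stood in 0 of 30 (against 1.13% of all), which says only that these letters are not in this window. The 250 bases before the start are shown for the sterol enzymes with the largest falls at D4 (Hmgcs1, Idi1), for Nsdhl, whose 5 copies are as many as any sterol enzyme holds there, and for Fa2h, the member with the largest fall of all. Capitals mark CCAAT on either strand, read as CCAAT or ATTGG, 5′ to 3′ towards the gene.
Hmgcs1 (GRCr8, chr2:53382054-53382303, plus strand): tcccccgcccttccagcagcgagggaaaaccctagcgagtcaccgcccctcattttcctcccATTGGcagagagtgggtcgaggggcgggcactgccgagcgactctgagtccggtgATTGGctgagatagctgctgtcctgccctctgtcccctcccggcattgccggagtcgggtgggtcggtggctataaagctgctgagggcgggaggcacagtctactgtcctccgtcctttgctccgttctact
Idi1 (GRCr8, chr17:66547525-66547774, minus strand): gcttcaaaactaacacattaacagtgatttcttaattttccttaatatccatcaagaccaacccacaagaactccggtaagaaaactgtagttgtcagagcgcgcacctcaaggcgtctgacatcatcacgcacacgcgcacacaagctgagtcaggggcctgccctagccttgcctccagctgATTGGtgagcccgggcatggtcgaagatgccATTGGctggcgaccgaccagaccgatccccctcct
Nsdhl (GRCr8, chrX:155817110-155817359, plus strand): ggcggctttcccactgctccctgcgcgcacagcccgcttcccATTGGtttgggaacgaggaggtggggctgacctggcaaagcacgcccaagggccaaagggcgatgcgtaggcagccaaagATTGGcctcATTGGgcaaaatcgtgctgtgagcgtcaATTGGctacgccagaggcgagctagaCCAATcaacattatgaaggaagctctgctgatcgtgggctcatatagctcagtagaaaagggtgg
Fa2h (GRCr8, chr19:56273481-56273730, minus strand): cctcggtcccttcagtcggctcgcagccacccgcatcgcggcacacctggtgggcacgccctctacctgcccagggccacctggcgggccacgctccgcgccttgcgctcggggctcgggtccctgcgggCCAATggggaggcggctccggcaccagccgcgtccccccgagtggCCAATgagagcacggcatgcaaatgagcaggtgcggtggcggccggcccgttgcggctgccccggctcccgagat
In Hmgcs1 the marked letters began 188 and 133 bases before the start, in Idi1 66 and 35, in Nsdhl 208, 128, 119, 91 and 65, and in Fa2h 120 and 75. Mvk, the sterol enzyme with the smallest fall, also held 5 copies in the 250 bases before the start. Cyp51 and Dhcr7 held 0 there. A link between these letters and the size of the fall was not tested. The matches describe the sequence, and binding at them was not measured.

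Of the 4 regulators of the sterol pathway, Insig1 and Srebf2 were lower at both days. Insig1, which holds the SREBP complex in the endoplasmic reticulum and is itself an SREBP target, had 287 and 407 CPM in control, 24.3 and 25.4 at D4 and 35.8 and 83.4 at D7. Its fall was 14.0-fold at D4 (log2 fold change -3.80 ± 0.42, adjusted p = 0.0011) and 5.83-fold at D7 (log2 fold change -2.54 ± 0.40, adjusted p = 0.00504), and its D7 libraries differed by a ratio of 2.33. Srebf2, the factor that mainly drives sterol genes, had 497 and 429.6 CPM in control, 145 and 154 at D4 and 243 and 195 at D7 (log2 fold change -1.63 ± 0.14, adjusted p = 0.000454 at D4; log2 fold change -1.08 ± 0.14, adjusted p = 0.0025 at D7). All injured libraries of both genes were below control. The value of Srebf2 at D7 was near the threshold, at -0.97 without control a, -0.93 without D7 b and -0.79 without TMM factors.

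Srebf1, the factor linked to fatty acid synthesis, had 152 and 151 CPM in control, 83.2 and 75.0 at D4 and 122 and 163 at D7. At D4 both libraries were below control, by less than 2-fold (log2 fold change -0.93 ± 0.15, adjusted p = 0.00424), and at D7 the groups overlapped (log2 fold change -0.083 ± 0.15, adjusted p = 0.69). Without D4 a, the value at D4 was -1.01 with an adjusted p of 0.0276, past the threshold. Scap, the escort protein that carries SREBP to the Golgi, differed from control by less than 2-fold (log2 fold change -0.35 ± 0.10, adjusted p = 0.0345 at D4; log2 fold change -0.48 ± 0.10, adjusted p = 0.0134 at D7).

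Fatty acid synthesis was represented by 4 genes, of which 3 were lower at both days. Acly, which yields the cytosolic acetyl-CoA, had 1318 and 1990.0 CPM in control, 305 and 329 at D4 and 578 and 724 at D7 (log2 fold change -2.38 ± 0.23, adjusted p = 0.000613 at D4; log2 fold change -1.35 ± 0.22, adjusted p = 0.00564 at D7). Acaca, the carboxylase that commits acetyl-CoA to fatty acids, had 1054 and 1263 CPM in control, 153 and 164 at D4 and 183 and 358 at D7 (log2 fold change -2.87 ± 0.32, adjusted p = 0.00112 at D4; log2 fold change -2.10 ± 0.31, adjusted p = 0.00406 at D7). Fasn, fatty acid synthase, had 5928 and 8170.3 CPM in control, 638 and 747 at D4 and 658 and 2396 at D7 (log2 fold change -3.35 ± 0.60, adjusted p = 0.00624 at D4; log2 fold change -2.21 ± 0.57, adjusted p = 0.0272 at D7). All injured libraries of these 3 genes were below both controls, and D7 b stood above D7 a in each. The call of Fasn at D4 was lost without D4 a (adjusted p = 0.0551). Its call at D7 was lost without control b (adjusted p = 0.0821), without D4 a (0.0576), without D4 b (0.0581) and in a fit of the control and D7 libraries alone (0.0589).

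Scd (chr1:264160129-264172729), the desaturase that puts the first double bond into stearate, had the highest control FPKM of all members, with a mean of 3116. It had 13217 and 18630.3 CPM in control, 1327 and 718 at D4 and 79.7 and 4580.5 at D7. Every injured library lay below both controls, yet Scd was not called (log2 fold change -3.96 ± 1.57, adjusted p = 0.0856 at D4; log2 fold change -2.77 ± 1.49, adjusted p = 0.189 at D7), and its D7 libraries differed by a ratio of 57.5. Without D7 a, the log2 fold change at D7 was -1.77 (adjusted p = 0.0409), and without D7 b it was -7.64 (adjusted p = 0.00191), so each fit with 1 D7 library called Scd lower. Such a fit assumes that the lone library varies like the other groups. At D4, Scd was called lower by DESeq2 (adjusted p = 0.00345). It was also called lower in an edgeR fit of the control and D4 libraries alone (log2 fold change -3.91 ± 0.38, adjusted p = 0.00146). Its log2 fold change at D4 was -3.92 without D7 a and -3.96 without D7 b. Scd has the related gene Scd2, and whether fragments of one were counted on the other was not tested.

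Adipocyte markers and the fatty acid genes were both higher in D7 b than in D7 a. The 9 markers, all tested, had a summed level of 3466 and 2955 CPM in control, 967 and 475 at D4 and 93.2 and 1263 at D7. Adipoq, the fat cell hormone adiponectin, had 550.4 and 442 CPM in control, 134 and 63.9 at D4 and 2.30 and 185 at D7, and none of the 9 adipocyte markers was at 0 in any library. Between D7 b and D7 a the markers had ratios of 4.32 to 108 (median 32.8), and the 4 fatty acid genes 1.25 to 57.5. The highest of the 4 was Scd, and the next was Fasn at 3.64. Over the same libraries all 17 sterol enzymes were lower in b, at ratios of 0.648 to 0.982, as were all 10 Schwann markers, at 0.575 to 0.884. Macrophage, endothelial and fibroblast markers were also higher in b. The ratios were 1.03 to 1.52 for all 8 of macrophages, 1.33 to 1.76 for all 3 of endothelium and 1.08 to 1.16 for all 4 of fibroblasts. Acly, at 1.25, lay within the range of the macrophage markers. Skeletal muscle markers, at low levels, divided. Higher in b were Myh1 (0.141 CPM in D7 a and 10.8 in D7 b), Acta1 (0.0939 and 2.28), Ckm (0 and 1.43) and Tnni2 (0 and 0.297). Tnnt3 (7.61 and 7.03) and Myh7 (0.235 and 0.0495) were lower in b. In control, the 4 fatty acid genes were higher in b while 7 of 9 adipocyte markers were lower in b. At D4 all 9 adipocyte markers were lower in b, at ratios of 0.387 to 0.585, while 3 of 4 fatty acid genes were higher in b. These 3 were Acly, Acaca and Fasn, at 1.07 to 1.17. Scd was lower in b at D4, at 0.541, within the range of the adipocyte markers. The adipocyte markers as such were called in 1 of 9 cases, Lipe at D7. The part of any of these cell types in the values of the fatty acid genes was not tested.

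**Figure D3:**
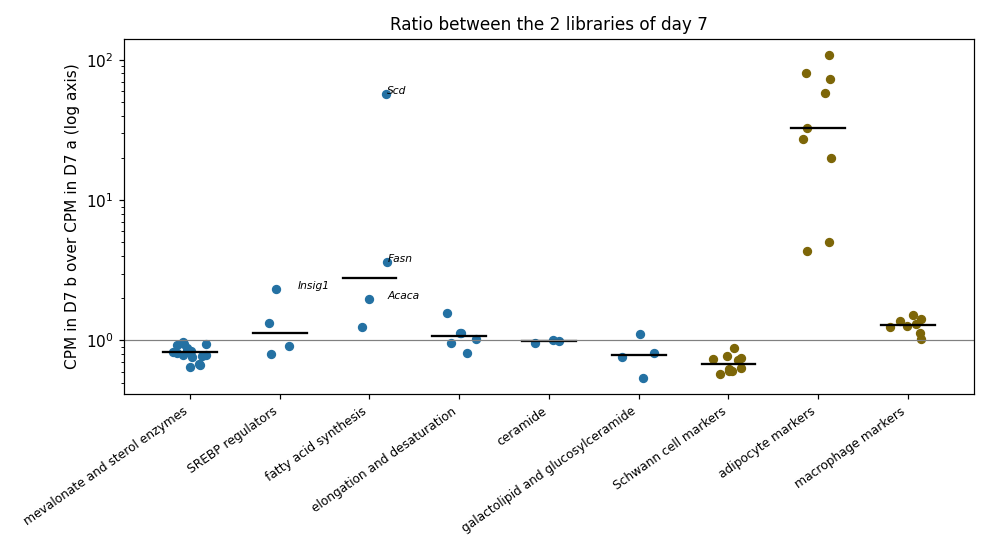
Ratio of the CPM in D7 b to that in D7 a, on a log axis, for the lipid synthesis genes by role (blue) and for marker lists (brown); each point is 1 gene and bars are medians. Sterol enzymes lie between 0.648 and 0.982, Scd is at 57.5, and the adipocyte markers lie between 4.32 and 108.

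Elongation and desaturation genes divided. Elovl6, which lengthens saturated and monounsaturated chains, is counted under 2 identifiers that lie next to each other on chromosome 2 without overlap, and fragments may be split between them, so they are not independent. ENSRNOG00000010468 (chr2:234189105-234296145) had 43.9 and 43.7 CPM in control, 1.03 and 1.81 at D4 and 6.90 and 6.58 at D7 (log2 fold change -4.93 ± 0.25, adjusted p = 0.00013 at D4; log2 fold change -2.70 ± 0.22, adjusted p = 0.000621 at D7). ENSRNOG00000048949 (chr2:234375315-234483149) had 257 and 241 CPM in control, 5.62 and 7.43 at D4 and 22.9 and 35.9 at D7 (log2 fold change -5.25 ± 0.27, adjusted p = 0.000134 at D4; log2 fold change -3.08 ± 0.24, adjusted p = 0.000589 at D7). Both entries stood at 2.63% to 3.27% of control at D4 and at 11.8% to 15.4% at D7.

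Elovl1, which makes very long saturated chains for sphingolipids, had 188 and 166 CPM in control, 84.9 and 89.4 at D4 and 155 and 127 at D7. It was lower at D4 only by a margin (log2 fold change -1.02 ± 0.13, adjusted p = 0.00167) and was not called at D7 (log2 fold change -0.32 ± 0.13, adjusted p = 0.0932). It fell short of 2-fold at D4 without control a (-0.93), without D4 a (-0.98), without D7 a (-0.98) and without TMM factors (-0.73). The same held in a fit of the control and D4 libraries alone (-0.9665), with RLE factors in place of TMM factors (-0.9992) and with DESeq2 (-0.9994). Elovl5, which acts on polyunsaturated chains, differed from control by less than 2-fold (log2 fold change -0.54 ± 0.11, adjusted p = 0.00959 at D4; log2 fold change -0.48 ± 0.11, adjusted p = 0.0181 at D7). Fads2, the delta-6 desaturase, had 139 and 113 CPM in control, 128 and 174 at D4 and 121 and 138 at D7 and was not called (log2 fold change 0.26 ± 0.18, adjusted p = 0.277 at D4; log2 fold change 0.042 ± 0.18, adjusted p = 0.874 at D7). Fads1, the delta-5 desaturase, was the member with the highest log2 fold change at D4, with both D4 libraries above control at less than 2-fold (log2 fold change 0.67 ± 0.15, adjusted p = 0.0131).

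Of 3 ceramide genes, 1 was lower. Sptlc1 and Sptlc2 encode subunits of serine palmitoyltransferase, the first step of sphingolipid synthesis. Sptlc2 had 139.5 and 98.6 CPM in control, 55.7 and 53.5 at D4 and 51.3 and 51.4 at D7 and was lower at both days (log2 fold change -1.13 ± 0.17, adjusted p = 0.00309 at D4; log2 fold change -1.21 ± 0.17, adjusted p = 0.00317 at D7). Under the threshold were its values at D4 and D7 without control a (-0.85 and -0.94) and without TMM factors (-0.83 and -0.92). Sptlc1 differed from control by less than 2-fold (log2 fold change -0.37 ± 0.09, adjusted p = 0.0192 at D4; log2 fold change -0.21 ± 0.09, adjusted p = 0.119 at D7). Cers2, the ceramide synthase for very long chains, had 234 and 186 CPM in control, 130.2 and 125 at D4 and 118 and 117 at D7, below control in every injured library but by less than 2-fold (log2 fold change -0.72 ± 0.13, adjusted p = 0.00562 at D4; log2 fold change -0.83 ± 0.13, adjusted p = 0.00426 at D7).

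Log2 fold changes of the 4 galactolipid and glucosylceramide enzymes ran from -6.52 to 0.071 at D4. Fa2h (chr19:43545378-43596801), which hydroxylates the fatty acids of galactolipids and whose upstream sequence is shown above, had 681 and 512 CPM in control, 6.44 and 6.54 at D4 and 87.6 and 47.4 at D7. It was at 1.09% of control at D4 (log2 fold change -6.52 ± 0.37, adjusted p = 0.000162), a 91.8-fold fall and the largest of the 38 entries, and at 11.3% at D7 (log2 fold change -3.14 ± 0.31, adjusted p = 0.00104). Ugt8, which transfers galactose to ceramide, had the highest control FPKM of this group, with a mean of 500.3. It had 2425 and 1667 CPM in control, 193 and 228 at D4 and 429 and 351 at D7 (log2 fold change -3.28 ± 0.23, adjusted p = 0.000242 at D4; log2 fold change -2.39 ± 0.22, adjusted p = 0.000838 at D7). Gal3st1, which adds the sulfate of sulfatide, had 31.2 and 23.1 CPM in control, 8.58 and 9.46 at D4 and 33.7 and 25.9 at D7. It was lower at D4 (log2 fold change -1.59 ± 0.21, adjusted p = 0.00183) and overlapped control at D7 (log2 fold change 0.13 ± 0.20, adjusted p = 0.624). Ugcg, which puts glucose on ceramide in place of galactose and is not particular to myelin, had 68.6 and 84.6 CPM in control, 89.6 and 71.2 at D4 and 80.9 and 90.4 at D7 and overlapped control at both days (log2 fold change 0.071 ± 0.16, adjusted p = 0.742 at D4; log2 fold change 0.16 ± 0.16, adjusted p = 0.452 at D7).

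**Figure D4:**
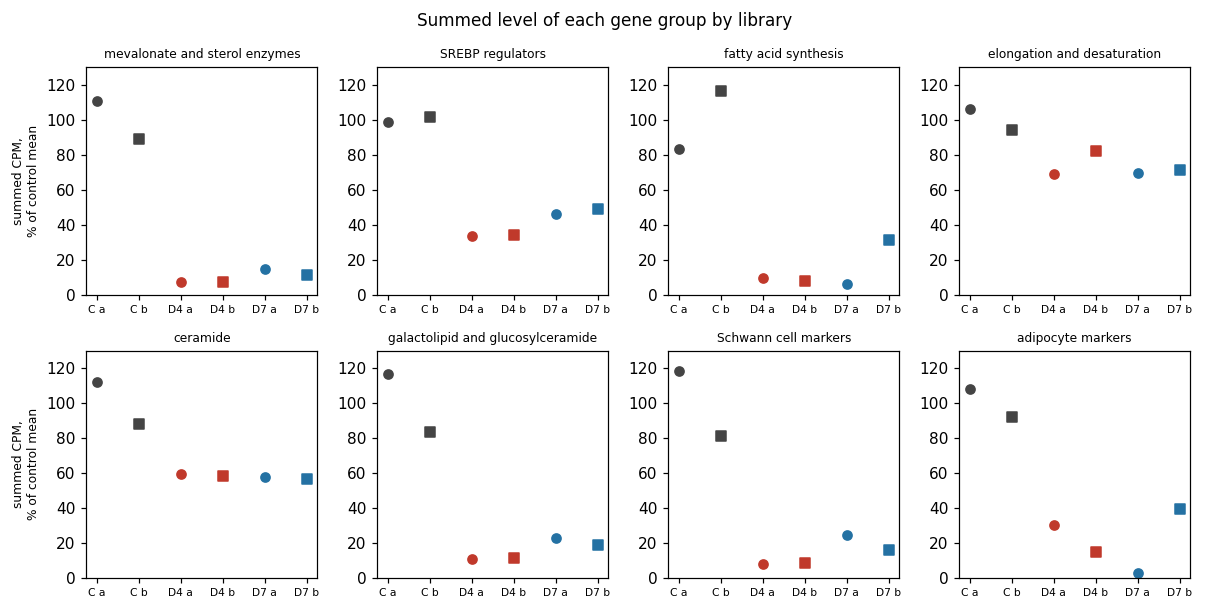
Summed TMM-scaled CPM of each gene group in each library, as a percentage of the mean of the 2 control libraries (C a, C b); the last 2 panels show Schwann cell and adipocyte markers. Sterol enzymes are at 6.97% and 7.28% at D4 and at 14.6% and 11.4% at D7, ceramide genes stay between 56.8% and 59.5%, and fatty acid synthesis and adipocyte markers are split between the D7 libraries.

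The test of D7 against D4 asked whether the level had moved between the days. Of the 38 entries, 8 were higher at D7 than at D4, against 1.68% of all genes tested, and 0 were lower, against 0.494%. Beside this 0, edgeR's unadjusted p was under 0.05 for 1 entry with a lower value (Fads1), and DESeq2 called 0. The median log2 fold change was 0.69, and that of all genes tested 0.012. Of all 38 entries 6 had a fitted value lower at D7 than at D4, against 7369 of the 15195 genes tested. Of the 29 entries lower at D4, 27 had a fitted value higher at D7 than at D4, the exceptions being Ebp and Sptlc2. These 29 were picked for low values in the same D4 libraries. That choice alone can raise the count, and the share among all genes lower at D4 was not counted. Among the 8 were 4 sterol enzymes, Hmgcs1 (log2 fold change 1.37 ± 0.23, adjusted p = 0.035), Idi1 (log2 fold change 1.58 ± 0.15, adjusted p = 0.0117), Fdft1 (log2 fold change 1.24 ± 0.18, adjusted p = 0.0264) and Msmo1 (log2 fold change 1.30 ± 0.15, adjusted p = 0.0159). The others were Fa2h (log2 fold change 3.38 ± 0.33, adjusted p = 0.0117), Gal3st1 (log2 fold change 1.72 ± 0.21, adjusted p = 0.0169) and both Elovl6 entries (log2 fold change 2.23 ± 0.25, adjusted p = 0.0144 and log2 fold change 2.17 ± 0.25, adjusted p = 0.0155). In all 8 both D7 libraries stood above both D4 libraries. The calls came from these same libraries, so this separation is no added evidence. Of the 8, 7 were still lower than control at D7. These calls rest on both D4 libraries: without D4 a or without D4 b, 0 of the 38 entries and 0 of all genes tested were called in either direction. The log2 fold changes of the 8 then ran from 1.17 to 3.37 without D4 a and from 1.32 to 3.39 without D4 b, with adjusted p from 0.138 to 0.251 and from 0.112 to 0.221. Without D7 a, the calls of Hmgcs1 (adjusted p = 0.11), Fdft1 (0.114), Msmo1 (0.0746), Elovl6 ENSRNOG00000010468 (0.0618) and Gal3st1 (0.0743) were lost. Of the Schwann markers 5 of 10 were higher at D7 than at D4. For Scd the direction depended on the D7 library, with a value of -3.68 (adjusted p = 0.0271) without D7 b.

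Other genes of the same pathways, from lists that hold no member, were read in the same fit. Of 11 further sterol genes, 4 were lower at each day and 0 higher. Among the 4 were Acat2, which condenses acetyl-CoA units, and Por, which passes electrons to cytochrome P450 enzymes; both were named after their values were seen. Acat2 had 87.9 and 56.7 CPM in control, 11.5 and 10.3 at D4 and 16.9 and 12.5 at D7 (log2 fold change -2.74 ± 0.26, adjusted p = 0.000586 at D4; log2 fold change -2.30 ± 0.25, adjusted p = 0.00141 at D7). Por had 195 and 154 CPM in control, 87.3 and 71.9 at D4 and 73.2 and 80.5 at D7 (log2 fold change -1.13 ± 0.16, adjusted p = 0.00229 at D4; log2 fold change -1.19 ± 0.16, adjusted p = 0.00268 at D7). In both genes all injured libraries were below control.

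Of 22 further fatty acid genes tested, 11 were lower and 1 higher at D4, and 9 were lower and 1 higher at D7. Elovl7, an elongase, fell most and had 82.8 and 69.5 CPM in control, 2.09 and 2.48 at D4 and 7.94 and 5.69 at D7 (log2 fold change -5.05 ± 0.22, adjusted p = 0.00012 at D4; log2 fold change -3.48 ± 0.20, adjusted p = 0.000332 at D7). Acsl6, an acyl-CoA synthetase, was the gene that rose, from low levels, and had 0.670 and 1.02 CPM in control, 4.35 and 6.39 at D4 and 1.97 and 2.72 at D7 (log2 fold change 2.67 ± 0.38, adjusted p = 0.00265 at D4; log2 fold change 1.47 ± 0.39, adjusted p = 0.0291 at D7). Of 17 further sphingolipid genes tested, 3 were lower and 1 higher at D4, and 2 were lower and 1 higher at D7. Among those called lower, the largest fall at D4 was that of B4galnt1, a ganglioside synthase (log2 fold change -1.63 ± 0.33, adjusted p = 0.0103), and at D7 that of Sgms2, a sphingomyelin synthase (log2 fold change -1.46 ± 0.16, adjusted p = 0.00156). The others lower, Cers4 and Sgms1 at D4 and Degs1 at D7, were named after their values were seen. Cerk, ceramide kinase, was the gene that rose and had 93.6 and 102 CPM in control, 230.1 and 232 at D4 and 307 and 259 at D7 (log2 fold change 1.24 ± 0.11, adjusted p = 0.000561 at D4; log2 fold change 1.53 ± 0.12, adjusted p = 0.000519 at D7). The shares of these lists called lower lie above the background of 10.7% at D4 and 9.02% at D7, by a small count for the sphingolipid list.

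Long noncoding transcripts that overlap a member gene were read in the separate fit of the lncRNA table. There were 30 of them over 20 entries, and 22 were tested. At D4, 6 were lower, against 4.87% of all lncRNAs tested, and 0 were higher, against 5.19%. At D7, 2 were lower, against 2.79%, and 0 were higher, against 3% of all. Beside the counts of 0, edgeR's unadjusted p was under 0.05 for 3 transcripts with a higher value at D4 and 2 at D7, and DESeq2 called 0 and 1 (NONRATT016661.2 over Cers2). NONRATT008933.2 (chr13:88288691-88289682) over Hsd17b7 (log2 fold change -3.19 ± 0.37, adjusted p = 0.00854 at D4; log2 fold change -2.22 ± 0.36, adjusted p = 0.0282 at D7) and NONRATT011461.2 (chr16:26870224-26870637) over Msmo1 (log2 fold change -3.21 ± 0.40, adjusted p = 0.00969 at D4; log2 fold change -1.91 ± 0.37, adjusted p = 0.044 at D7) were lower at both days. NONRATT022561.2 (chr5:137255907-137259804) over Elovl1 (log2 fold change -1.77 ± 0.24, adjusted p = 0.0131), NONRATT015031.2 (chr2:52427659-52436381) over Hmgcs1 (log2 fold change -2.19 ± 0.30, adjusted p = 0.0132), NONRATT015456.2 (chr2:188784297-188784689) over Pmvk (log2 fold change -1.88 ± 0.38, adjusted p = 0.0363) and NONRATT014720.2 (chr19:43556099-43596637) over Fa2h (log2 fold change -3.82 ± 0.56, adjusted p = 0.016) were lower at D4. NONRATT015031.2 had 28.0 and 34.3 CPM in control, 7.50 and 6.11 at D4 and 13.6 and 10.4 at D7, with both injured groups below control. Strand of counting was not stated, so fragments of the gene and of the transcript over it cannot be told apart. Without D4 a, 2 of the transcripts were called, and without D4 b, 0.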

How the data were processed

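RNA of sciatic nerve from 6 rats in 3 groups of 2 was analyzed. Per the study's methods and the submitters' processing notes, the authors filtered out ribosomal reads, aligned what remained to the rat genome Rnor_6.0 with HISAT2 2.0.4, and assembled transcripts and counted fragments with StringTie 1.3.0. The deposited counts are whole fragment counts per gene or lncRNA transcript and were not normalized. The deposited FPKM values were used only to compare levels between genes. Strand of counting is not given in the sources used here. Fold changes and tests came from edgeR 4.0.16 in R 4.3.3: filterByExpr, TMM factors, 1 quasi-likelihood fit of the 6 libraries, and Benjamini-Hochberg adjustment over all genes tested. A call needed a fold change of 2 or more and an adjusted p below 0.05. Standard errors are the log2 fold change over the square root of F. The study's methods name edgeR, TMM and these thresholds.

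Members and lists were chosen with earlier results of these data known. Members called in any comparison, and in each group the uncalled member with the highest control FPKM, are given in every library; of other lists the largest rise and fall called per day are named. A lncRNA was assigned to a gene by an overlap of at least 1 base. Alternatives were DESeq2 1.42.0, a term for the letters a and b, fits without the group not compared, other scalings, filters and thresholds, and leaving out each library. Scripts were tested on simulated data. Tables and figures were made with Python 3.11.15, numpy 2.4.6, pandas 2.3.3 and matplotlib 3.10.9. Marker or pathway genes without a match (Cers1, Myh2, Myh4, Pecam1) were not analysed here, and the values of some genes of the marker and pathway lists are not reported here.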

Additional observations from a re-analysis of the deposited data

Results flagged for a closer look

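The effects of 8 entries at D4 and D7 differed from each other by the direct edgeR test of D7 against D4. The log2 fold changes between the days were 1.37 for Hmgcs1, 1.58 for Idi1, 1.24 for Fdft1, 1.30 for Msmo1, 2.23 for Elovl6 (ENSRNOG00000010468), 2.17 for Elovl6 (ENSRNOG00000048949), 3.38 for Fa2h and 1.72 for Gal3st1. Each was higher at D7 in both libraries than in either D4 library, but these are the libraries that gave the calls, so this is no added evidence. When the 2-fold change itself was tested with glmTreat, Fa2h kept its call (adjusted p = 0.0404). Without D4 a or without D4 b, 0 genes of the whole table were called in this comparison.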

How the results depend on the processing

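Of the members' calls, 26 of 29 at D4, 22 of 27 at D7 and 0 of 8 between D7 and D4 were made in every fit that kept the 2-fold threshold. The replicate block, with the letters a and b as a term, called 29 members lower at D4, 27 at D7 and 9 higher at D7 than D4, and Acly (1.03) joined the last; same-letter libraries had deviations correlated at 0.025 (control and D4), 0.24 (control and D7) and -0.19 (D4 and D7), so the letters were not taken as pairs. Without TMM factors the median of all genes moved to 0.252 at D4 and 0.307 at D7, the members' medians to -2.49 and -1.79, and the calls over all genes at D4 to 1077 lower and 2430 higher, against 1627 and 1706. Without a fold threshold 1 member (Fads1) was higher at D4. With glmTreat 26 members were lower at D4, 21 at D7, and 1 (Fa2h) was higher at D7 than D4. DESeq2 called 11 lncRNA transcripts over members, against 6. Leaving out each library gave 27 to 30 members lower at D4, 23 to 27 at D7, 0 to 10 higher and 0 to 1 lower (Scd) at D7 against D4, medians of -2.88 to -2.63 at D4, -2.09 to -1.75 at D7 and 0.523 to 0.723 between the days, and 0 to 5 lncRNA transcripts. Values that changed sign belonged to entries not called in that comparison. Without TMM factors Srebf1 and Sptlc1 were at 0.21 and 0.088 at D7. Leaving out each library, the log2 fold changes ran at D4 from -0.10 to 0.23 for Ugcg, at D7 from -0.31 to 0.14 for Srebf1, -0.10 to 0.20 for Fads2 and -0.070 to 0.37 for Gal3st1, and between the days from -0.43 to 0.018 for Fads2, -0.065 to 0.27 for Ugcg, -0.029 to 0.14 for Elovl5, and, lowest without D7 b and highest without D7 a, -0.076 to 1.78 for Fasn and -3.68 to 2.15 for Scd. The cause of these changes was not tested. Fits that leave 1 library in a group assume that it varies like the others, and with 2 rats per group a fold change near 2 can fall on either side of the threshold.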
